A study of Homo sapiens with 6 samples.

Results

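Among 11963 genes measured in NCI-H1975 cells and in their drug-resistant clone WZR6, 44 genes of the short arm of chromosome 1 (1p) are described here. They were listed as neighbours in 3 stretches of the arm, from NOC2L to LRRC47 with 14 members, from WASF2 to MECR with 13 and from ZMPSTE24 to MUTYH with 16, and DPH5 lies apart from these. All 44 were measured, by 73 probe sets, and each is represented by its brightest probe set over the 6 arrays. The members were chosen by their place and by their measured difference in log2 intensity between WZR6 and parental cells, so that difference is given as a description of the list and not as a test of it. All 44 lay above the median level of all probe sets, 7.38 on the log2 scale.

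The parental group held 3 samples of NCI-H1975, an established line of non-small cell lung cancer with mutant EGFR that is sensitive to WZ4002. WZ4002 is a kinase inhibitor directed at mutant EGFR, and WZR6 is a single clone isolated from cells grown in rising amounts of it, also with 3 samples. Both groups grew exponentially in medium with 5% serum, and the labels do not say if the drug was present when they were harvested. WZR6 stands for 1 clone, so clones were not compared, and the labels do not say that the samples of a group came from separate cultures. Each sample was read on 1 array, and n = 3 arrays per group holds for every value below.

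The short arm of chromosome 1 is gene-rich toward its end, and the genes listed here serve many functions, from splicing to secretion, and no single pathway. Neighbouring genes can share a promoter region, when they are transcribed away from each other, and they lie in common chromatin domains. In cancer cells, gains and losses of chromosome stretches change the dose of many neighbours at once. DNA was not measured on these arrays.

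The promoter windows of the member with the highest difference, P3H1, and of the one with the lowest, MRPL20, are shown because they mark the ends of the range described below. Each holds 300 bases, 250 before and 50 after the start of the gene, read 5′ to 3′ on the gene's own strand from RefSeq (GRCh38.p14, minus strand in both cases), at chr1:42766979-42767278 and chr1:1407244-1407543. Capitals mark matches on either strand to 1 of 8 short motifs, which are spelled out with their shares further below.
P3H1: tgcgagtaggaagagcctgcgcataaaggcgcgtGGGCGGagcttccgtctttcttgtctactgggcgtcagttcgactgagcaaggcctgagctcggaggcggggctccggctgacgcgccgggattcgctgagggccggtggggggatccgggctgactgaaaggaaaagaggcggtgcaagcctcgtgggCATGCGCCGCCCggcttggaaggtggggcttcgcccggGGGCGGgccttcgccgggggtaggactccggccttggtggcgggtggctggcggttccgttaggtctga
MRPL20: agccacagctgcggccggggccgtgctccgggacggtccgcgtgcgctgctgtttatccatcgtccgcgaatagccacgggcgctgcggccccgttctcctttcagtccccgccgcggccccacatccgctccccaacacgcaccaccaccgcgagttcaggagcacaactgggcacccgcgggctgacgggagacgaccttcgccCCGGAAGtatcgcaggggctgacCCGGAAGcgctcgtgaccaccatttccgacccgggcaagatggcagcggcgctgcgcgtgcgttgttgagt
The P3H1 window held 3 matches to the GC box bound by SP1 and 1 to a core of the NRF1 motif, and the MRPL20 window held 2 matches to the ETS motif. Both windows were rich in G and C, at 68.3% and 69.3%.

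Most of the 44 genes were higher in WZR6, by amounts that ranged up to 2.13-fold. Of the members, 42 had a difference above 0, and the median difference (WZR6 minus parental, log2 intensity) was 0.40, with quartiles of 0.29 and 0.60. Over all 11963 genes the median difference was 0.02. A gene is called where limma's moderated test over all genes gives a Benjamini-Hochberg adjusted p under 0.05. By this rule 35 members were called higher, 0 lower and 9 neither way (38 higher and 0 lower at an unadjusted p under 0.05), while 24.5% of all genes were called higher and 23.5% lower (48% either way). Since the contrast had served to list the genes, nothing is read from that count. In RNA from whole cultures, more RNA per cell and more cells with the RNA cannot be told apart.

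The members were listed by the difference between these same arrays, so the values by array describe the list and do not test it. On each WZR6 array taken alone, the median of the members lay above the parental level. The median deviation of the 44 genes from their parental means was -0.01, 0.02 and -0.01 on the parental arrays and 0.40, 0.42 and 0.41 on the WZR6 arrays. Each of the 3 WZR6 arrays lay above all parental arrays for 40 of the 44 members. The 3 WZR6 arrays together lay above the 3 parental arrays for 39 members, whereas 29.2% of all genes showed this. The groups overlapped for MRPL20, XKR8, ZMPSTE24, PPIH and KDM4A.

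**Figure D1:**
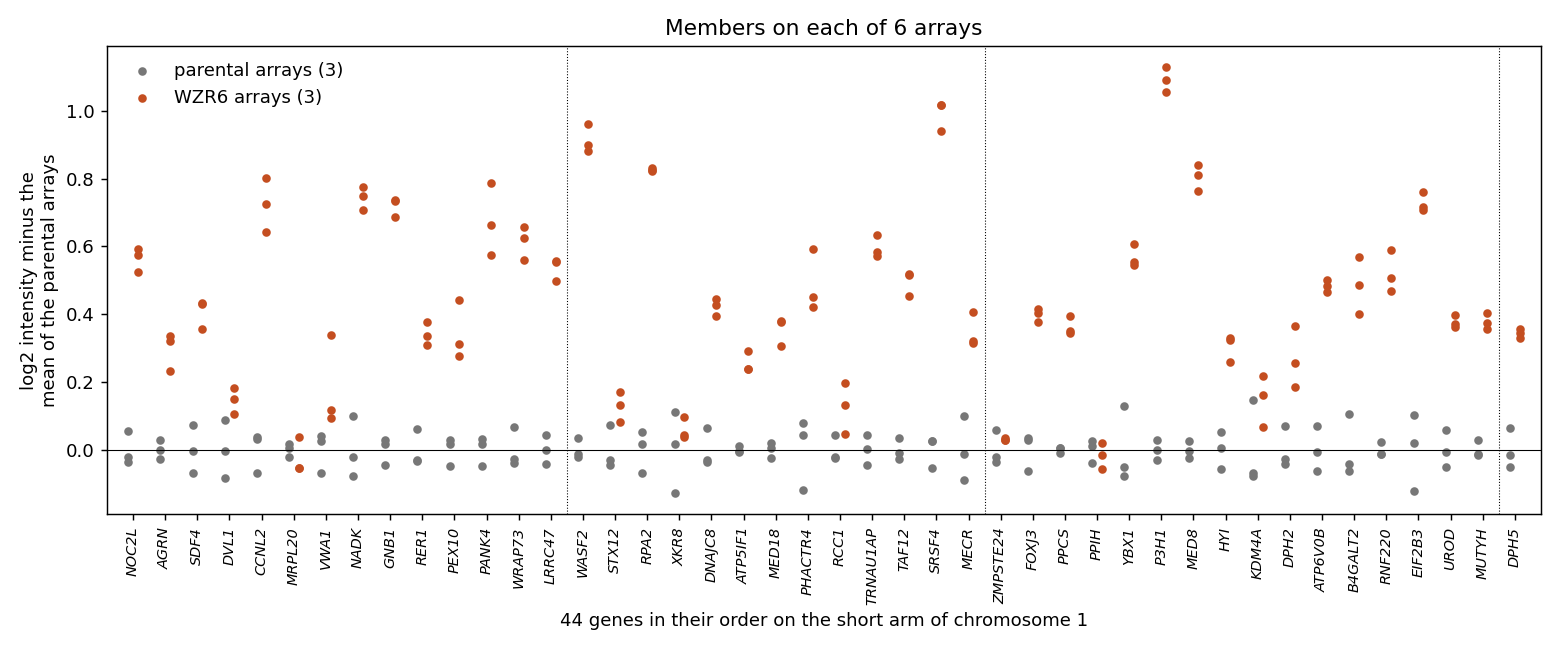
Log2 intensity of each of the 44 members on each array, minus the mean of the 3 parental arrays (vertical axis), with the genes in chromosome order and dotted lines between the stretches; grey points are parental and red points WZR6 arrays. The WZR6 arrays lie above the parental arrays for 39 members, and the differences run from -0.02 for MRPL20 to 1.09 for P3H1.

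Differences of the single members ran from -0.02 to 1.09, with standard errors between 0.04 and 0.08. In 11 members the difference was above 0.6, in 24 it lay between 0.2 and 0.6, and in 9 it was below 0.2. A difference of at least 1.5-fold with a call was seen in 12 members and in 5.12% of all genes, and P3H1 was the 1 member past 2-fold, a difference called in 1.36% of all genes. The called members began at 0.26 (1.19-fold, ATP5IF1), and the highest difference without a call was 0.18 (VWA1). The stretches resembled each other, with medians of 0.47 from NOC2L to LRRC47, 0.42 from WASF2 to MECR and 0.39 from ZMPSTE24 to MUTYH. In that order, 11 of 14, 10 of 13 and 13 of 16 members were called higher, beside 24.5% of all genes. The same share of all genes stands beside the counts by role below. Since the members were listed by their difference, nothing is read from counts by stretch or by role. DPH5, which lies well beyond the third stretch, differed by 0.34.

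The secretory route, its organelles and the extracellular matrix were served by 11 members, of which 7 were called higher and 4 were not called (median difference 0.34). P3H1, a prolyl hydroxylase that modifies collagen chains in the endoplasmic reticulum, measured 9.04, 9.01 and 8.98 in parental cells and 10.06, 10.13 and 10.10 in WZR6. Every WZR6 array lay far above every parental array, and the difference of 1.09 ± 0.04 (SE) corresponds to 2.13-fold. ZMPSTE24, the protease that matures lamin A, measured 11.30, 11.32 and 11.40 in parental cells and 11.37 in each of the WZR6 arrays. The WZR6 arrays thus lay inside the parental range, with a difference of 0.03 ± 0.04 (95% interval -0.07 to 0.14). XKR8, a lipid scramblase of dying cells, gave 9.60, 9.50 and 9.36 against 9.58, 9.53 and 9.52, again with overlapping groups and a difference of 0.06 ± 0.07 (interval -0.10 to 0.22).

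The other secretory members lay between these ends. ATP6V0B, a subunit of the proton pump that acidifies vesicles, and B4GALT2, a Golgi galactosyltransferase, were higher by 0.48 and 0.49. SDF4, a calcium-binding protein of the Golgi, was higher by 0.41. PEX10, needed for peroxisome import, and RER1, which returns proteins to the endoplasmic reticulum, were both higher by 0.34, and AGRN, the matrix proteoglycan agrin, by 0.30. The endosomal syntaxin STX12 and the matrix protein VWA1 differed by 0.13 and 0.18 without a call, although the WZR6 arrays lay above the parental arrays for both.

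Signalling and cytoskeletal genes held 5 called members of 6, with a median difference of 0.53. WASF2, the WAVE subunit that drives branched actin at the cell edge, measured 8.79, 8.78 and 8.84 in parental cells and 9.70, 9.68 and 9.76 in WZR6, or 1.88-fold higher (0.91 ± 0.04). GNB1, a beta subunit of heterotrimeric G proteins, measured 11.278, 11.290 and 11.216 against 11.995, 11.998 and 11.947, a difference of 0.72 ± 0.04. Both genes had narrow groups set far apart. LRRC47, counted in this group without a function stated for it, was higher by 0.54. The ubiquitin ligase RNF220 was higher by 0.52 and PHACTR4, a regulator of protein phosphatase and actin, by 0.49. DVL1, which relays WNT signals from the receptor, differed by 0.15 ± 0.06 and was not called.

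Among 5 genes of RNA processing and RNA binding, 4 were called higher (median 0.57). SRSF4, a serine and arginine-rich splicing factor, measured 10.34, 10.42 and 10.42 in parental cells and 11.34, 11.41 and 11.41 in WZR6, or 1.99-fold higher (0.99 ± 0.05). YBX1, the abundant RNA-binding protein YB-1, gave 13.51, 13.49 and 13.69 against 14.17, 14.12 and 14.11, a difference of 0.57 ± 0.06. CCNL2, a cyclin of splicing speckles, was higher by 0.72 and DNAJC8, a chaperone bound to the spliceosome, by 0.42. PPIH, the cyclophilin of a spliceosomal particle, stood outside this range, with 9.996, 9.933 and 9.983 in parental cells and 9.955, 9.915 and 9.991 in WZR6. Its groups overlapped and its difference was -0.02 ± 0.04 (95% interval -0.12 to 0.09). PPIH lies next to YBX1 in the order of measured genes, and YBX1 next to P3H1, so that neighbours at -0.02, 0.57 and 1.09 followed each other.

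Transcription and chromatin genes were called higher for 5 of 6 members (median 0.45). MED8, a subunit of Mediator, measured 9.40, 9.43 and 9.38 in parental cells and 10.17, 10.22 and 10.25 in WZR6, a difference of 0.80 ± 0.04 (1.75-fold). FOXJ3, a forkhead transcription factor, measured 10.28, 10.37 and 10.37 against 10.74, 10.72 and 10.76, a difference of 0.40 ± 0.05. In both genes the groups were clear of each other, as they were for NOC2L, a nucleolar inhibitor of histone acetylation (0.56), TAF12, a subunit of TFIID (0.50), and the Mediator subunit MED18 (0.35). KDM4A, a histone demethylase, differed by 0.15 ± 0.08 with overlapping groups and was not called.

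Of the 4 genes of DNA repair, chromosomes and centrosomes, 3 were called higher. RPA2, a subunit of the protein that coats single-stranded DNA, measured 10.05, 10.17 and 10.14 in parental cells and 10.94, 10.95 and 10.95 in WZR6, or 1.77-fold higher (0.83 ± 0.05). The 3 WZR6 arrays were nearly equal. WRAP73, a centrosomal protein, was higher by 0.61 and MUTYH, a glycosylase of oxidative DNA damage, by 0.38. RCC1, the exchange factor of the transport GTPase Ran, differed by 0.13 ± 0.05 and was not called.

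Translation was represented by 5 members, with 4 called higher (median 0.34). EIF2B3, a subunit of the exchange factor that recharges initiation factor eIF2, was higher by 0.73 ± 0.06. TRNAU1AP, which takes part in selenocysteine incorporation, was higher by 0.60, and DPH5 and DPH2, enzymes of the diphthamide modification of elongation factor, by 0.34 and 0.27. MRPL20, a protein of the mitochondrial ribosome, was the exception, at 12.01, 12.03 and 12.05 in parental cells and 11.98, 11.98 and 12.07 in WZR6. Its groups overlapped, and the difference of -0.02 ± 0.05 (95% interval -0.13 to 0.09) stood beside 0.72 for CCNL2, the gene just before it in the order of measured genes.

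All 7 metabolic and mitochondrial members were called higher (median 0.36), and their groups did not overlap. Of all genes, 24.5% were called higher and 29.2% had the 3 WZR6 arrays above the 3 parental arrays. The members were listed by their difference between WZR6 and parental cells, so nothing is read from this count. NADK, the kinase that makes NADP, measured 9.84, 9.90 and 10.02 in parental cells and 10.67, 10.63 and 10.69 in WZR6, or 1.67-fold higher (0.74 ± 0.06). UROD, an enzyme of heme synthesis, measured 11.49, 11.56 and 11.45 against 11.87, 11.86 and 11.90, a difference of 0.38 ± 0.05. PANK4, a relative of the pantothenate kinases, was higher by 0.67 and PPCS, an enzyme of coenzyme A synthesis, by 0.36. MECR, of mitochondrial fatty acid synthesis, was higher by 0.35, HYI, a putative isomerase, by 0.30 and ATP5IF1, the inhibitor of ATP synthase, by 0.26. These members came from each of the 3 stretches.

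Other probe sets of the same genes read the same RNA on the same arrays. Of the 29 probe sets not used for a gene, 22 were called higher in a fit over all 22215 probe sets, against 21.6% of all probe sets, with a median difference of 0.46, and 28 of them lay above 0. Over all 73 probe sets, which include the 44 that stand for the members, 57 were called higher, 0 lower and 16 neither way. No member had probe sets called in opposite directions. Since the genes were listed by their difference on these same arrays, nothing is read from the counts of probe sets. Some of these probe sets detect several transcripts, and the gene-level probe set was of the _s_at or _x_at type for 29 members.

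Probe sets of a gene differed most in size for NADK, whose 6 probe sets ran from 0.14 to 0.82 with 5 called higher. The 3 probe sets of GNB1 ran from 0.65 to 0.77 and those of MED8 from 0.80 to 0.94. For YBX1 they ran from 0.57 to 0.82. In GNB1, MED8 and YBX1 every probe set was called higher. In AGRN only 2 of 4 were, with differences from 0.02 to 0.30. UROD had 2 of 3 called higher, with differences from -0.02 to 0.44, and its lowest came from a dim probe set (mean 5.23). Of the 9 members without a call, 4 had another probe set that was called higher: STX12 at 0.66, RCC1 at 0.46, KDM4A at 0.40 and MRPL20 at 0.35. The second MRPL20 probe set was dim, with a mean of 4.81, below the lower quartile of all values (5.27), so near-background signal limits it. The other 5, DVL1, VWA1, XKR8, ZMPSTE24 and PPIH, had 1 probe set each.

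**Figure D2:**
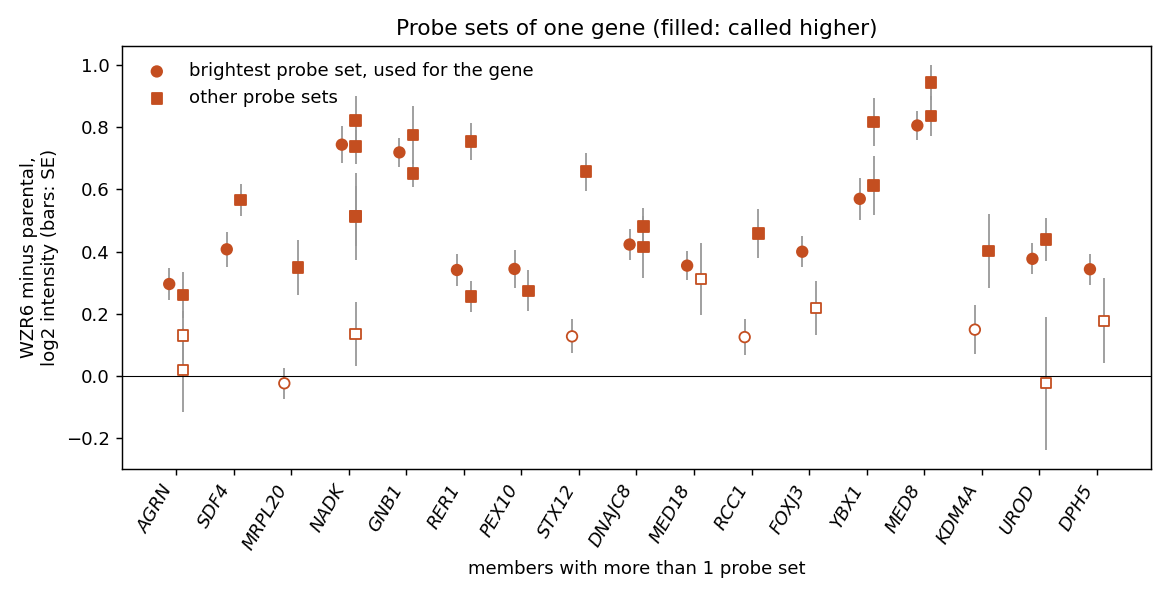
Difference (WZR6 minus parental, log2 intensity) for every probe set of the 17 members with more than 1; circles are the brightest probe set and squares the others, bars are standard errors, and filled symbols were called higher. In STX12, RCC1, KDM4A and MRPL20 the brightest probe set was not called and the other was called higher, in MED18, FOXJ3 and DPH5 it was the reverse, and 0 probe sets were called lower.

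The other measured genes of the 3 stretches, all those lying between the members, numbered 55. Of these, 27 were called higher (49.1%, against 24.5% of all genes), 3 lower and 25 neither way, with a median difference of 0.23. They are what the choice of the members left in these stretches, so that choice also shaped this list. CDC20, the activator of the anaphase-promoting complex, measured 11.70, 11.78 and 11.71 in parental cells and 12.79, 12.73 and 12.70 in WZR6, a difference of 1.01 ± 0.05. The zinc finger gene ZFP69B differed by 1.01 ± 0.12 and KIF2C, a mitotic kinesin, by 0.85 ± 0.05. The 3 called lower were SMPDL3B, a phosphodiesterase (-0.67 ± 0.08), the interferon-induced IFI6 (-0.28 ± 0.05) and the endothelin EDN2 (-0.19 ± 0.06). By stretch, 7 of 19 genes from NOC2L to LRRC47, 5 of 11 from WASF2 to MECR and 15 of 25 from ZMPSTE24 to MUTYH were called higher.

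Fewer of the genes between the members were bright: 28 of the 55 lay above the median level, against 44 of 44 members. When the fit was limited to probe sets above that level, 25 of these 28 genes were called higher, with a median difference of 0.46. In the same fit 39 of 44 members were called higher, at the unchanged median of 0.40, as were 38.9% of all genes above that level. The 352 bright 1p genes outside the list, whether between the members or elsewhere on the arm, had a median of 0.44, and 84.1% of them were called higher.

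Higher levels were not limited to the listed stretches. From the end of the arm to NOTCH2, near the centromere, 534 other genes were measured, of which 297 were called higher (55.6%) and 27 lower, with a median difference of 0.26. Of these 534, 1 lies before NOC2L. By gap, 108 of 186 genes from LRRC47 to WASF2, 45 of 84 from MECR to ZMPSTE24, 107 of 179 from MUTYH to DPH5 and 36 of 84 from DPH5 to NOTCH2 were called higher. The medians of these gaps were 0.26, 0.24, 0.35 and 0.16. Of the 534, 27 were called higher and 9 called lower by at least 2-fold, and differences ran from -3.13 to 2.55. Over all genes 1.36% were called higher by at least 2-fold. The members are fewer and were listed by their difference, so the ranges are not compared. Beyond NOTCH2, on the long arm apart from any genes before the centromere, 109 of 567 genes were called higher (19.2%) and 131 lower, with a median difference of 0.0013.

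**Figure D3:**
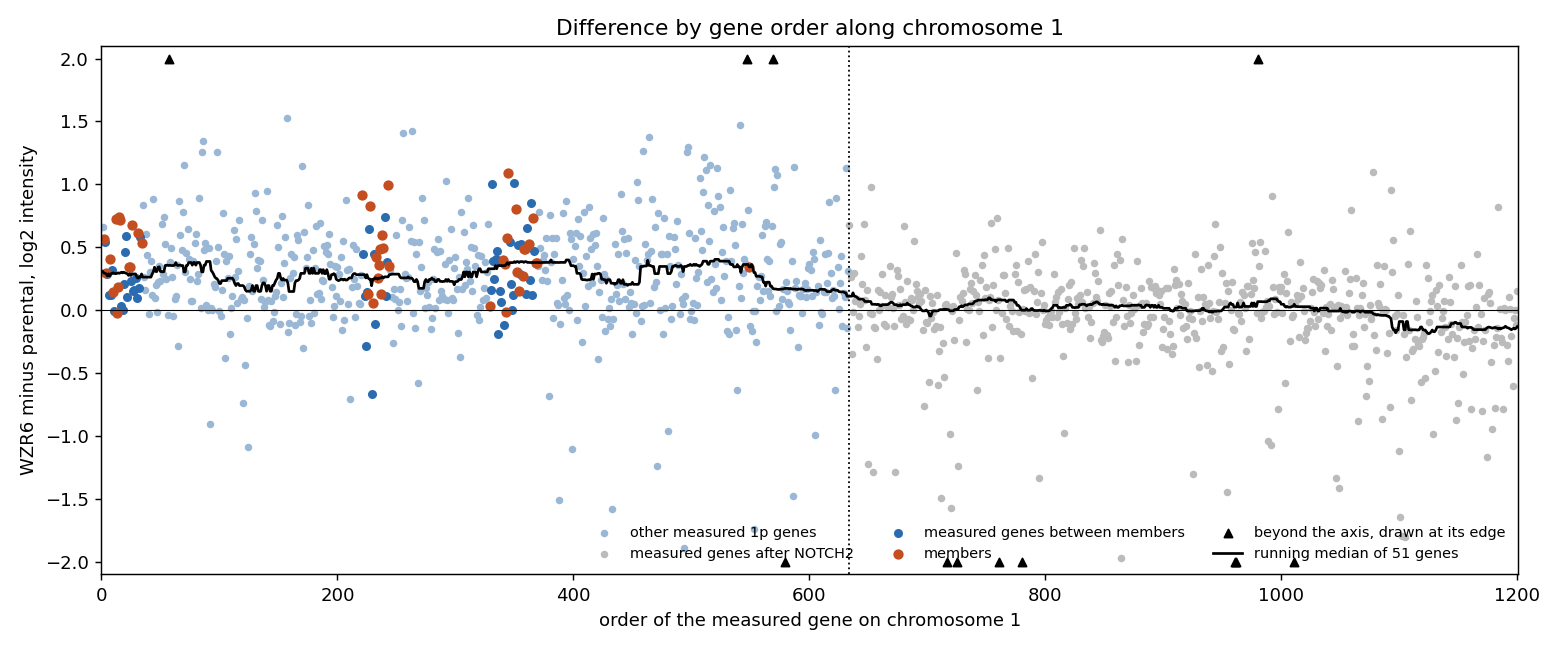
Difference (WZR6 minus parental, log2 intensity) of the measured chromosome 1 genes in chromosome order, with the members in red, the genes between them in dark blue, other 1p genes in light blue and genes after NOTCH2 (dotted line) in grey; the black line is a running median of 51 genes. The running median lies above 0 over the whole short arm and stays near 0 after NOTCH2 before it dips below 0 toward the end of the long arm; the median difference after NOTCH2 was 0.0013.

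**Figure D4:**
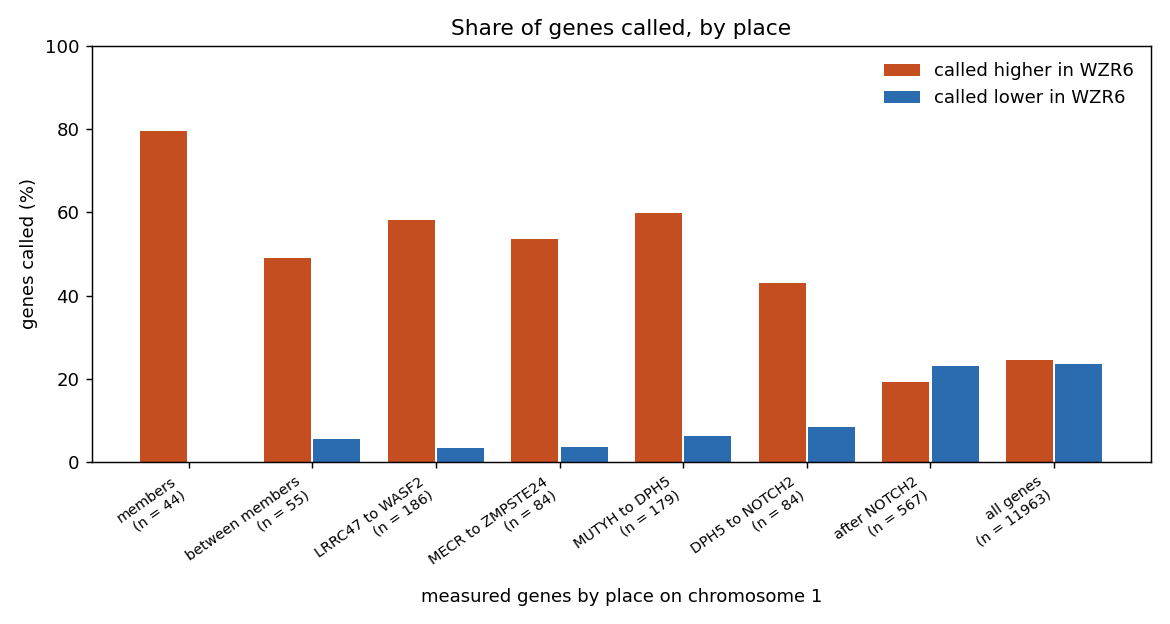
Percentage of measured genes called higher (red) and lower (blue) in WZR6 by place on chromosome 1, with the number of genes under each bar and all genes at the right. Genes called higher made up 79.5% of the members, 49.1% of the genes between them and between 42.9% and 59.8% of the 4 gaps, against 19.2% after NOTCH2 and 24.5% of all genes. The members were listed by this difference and are all bright. Above the median level the shares were 88.6% of members, 89.3% of genes between them, 83.6% of other 1p genes and 38.9% of all genes.

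Over all 633 measured 1p genes, members included, 56.7% were called higher and 4.74% lower, and the median difference was 0.27. Among the 22 other chromosomes considered (2 to 22 and X) the share called higher ran from 3.53% for chromosome 7 to 43.5% for chromosome 6, and the highest median difference was 0.17, for chromosome 21. These are values of 1 clone against its parent and of genes that share the same 6 arrays, and they are given without a test.

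Among the measured genes with a promoter window, 4 members had a partner on the opposite strand whose start lies within 1000 bases of their own. For 5 members no window was found, so they could not be searched. P3H1 was paired with C1orf50, and their promoter windows share 280 bases of the P3H1 sequence printed above; C1orf50 differed by 0.54 where P3H1 differed by 1.09. MUTYH and TOE1, which overlap at their starts, differed by 0.38 and 0.35, and UROD and HECTD3 by 0.38 and 0.47. RER1 was higher by 0.34 while its partner MORN1 differed by 0.11 without a call. In 3 of the 4 pairs both genes were called higher. Of all genes 24.5% were called higher, and of the measured 1p genes outside the list 55%. The members were listed by their difference, so nothing is read from the count of pairs.

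Promoter windows were found for 39 members; AGRN, WASF2, RPA2, MED8 and HYI were not among them. Their median G and C content was 64.7%, beside 64.0% for 9562 measured genes with a window. The GC box (GGGCGG) was present in 28 of 39 windows (71.8%, beside 63.1% of the measured genes). The ETS motif (CCGGAAG) was present in 15 windows (38.5% beside 15.2%), an E-box (CACGTG) in 9 (23.1% beside 9.51%) and a core of the NRF1 motif (GCGCATG) in 6 (15.4% beside 6.32%). A core of the YY1 motif (GATGGCG) was found in 3 windows (7.69% beside 6.47%) and a core of the CRE (TGACGT) in 5 (12.8% beside 10.9%). The CCAAT box (CCAAT) was found in 11 windows (28.2% beside 37.3%) and the letters of the TATA box (TATAAA) in 0 of 39 (8.30% of the measured genes). Matches were counted on both strands and motifs can overlap; they describe the letters in these windows and not binding. All members lay above the median level, whereas the measured genes include dimmer ones. The shares were not matched for level and not compared by a test.

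Across all probe sets, arrays of the same group correlated at r of 0.9978 to 0.9983 and arrays of different groups at 0.9815 to 0.9826. Of 10 lung epithelial markers 9 were measured, and all 9 lay above the lower quartile in both groups. In WZR6, 7 were called lower and 0 higher. EPCAM fell from 12.43 in parental cells to 6.17 in WZR6 and CDH1 from 12.01 to 6.32. KRT8 moved from 12.29 to 12.08, and KRT18 (14.14 and 14.02) and SFTPB (7.45 and 7.46) were not called. The summed intensity of the 9 epithelial markers, in which bright keratins weigh most, lay between 47640 and 48194 on the parental arrays. On the WZR6 arrays it lay between 26687 and 27381. Of the leukocyte markers measured, 4 of 8 lay above the lower quartile in either group, and 0 were called higher and 3 lower. CD14 measured 8.45 in parental cells and 7.49 in WZR6, ITGB2 6.86 and 5.49, and CSF1R 6.64 and 6.43, while the pan-leukocyte PTPRC was near background at 4.20 and 4.17. The summed intensity of the leukocyte markers was 652 to 729 on the parental and 421 to 445 on the WZR6 arrays. Fibroblast and endothelial markers were above it for 7 of 10 in both groups, with sums of 2357 to 2542 and 1457 to 1492, and 2 were called higher and 2 lower. The part of these shifts in the differences of the 1p genes was not tested.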

How the data were processed

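Per the labels, biotin-labelled RNA of 6 samples was hybridised to 1 array each. The deposited values are intensities per probe set on a linear scale, which the submitters' processing notes credit to RMA (background correction, quantile normalization of probes, summary per probe set) without a version. Values were taken to log2 without a pseudocount and not normalized again. Of 22277 probe sets, 62 controls were left out. The platform annotation named 1 gene for 19064 probe sets, several for 1043 and none for 2108, and 19052 were found by Entrez identifier in RefSeq's gene table (GRCh38.p14), which gave the gene order. A gene's brightest probe set over 6 arrays stood for it.

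Groups came from the titles. limma 3.58.1 in R 4.3.3 (lmFit, eBayes, two-sided, Benjamini-Hochberg) was fitted over 11963 genes and over 22215 probe sets, and tested on simulated data. Errors are SE of that fit, and intervals have 95% confidence. The p-values measure the spread between these samples, which may be technical. The members, the role groups and the positional lists were chosen with earlier results of these data known. The rule for members given array by array took the 6 largest and 4 smallest differences, opposite signs, probe sets called both ways and the brightest member of each role; of neighbours, the 3 largest calls each way. Other scalings, level filters, variance models, a replicate block, other probe set rules, a 1.5-fold call and each array left out were tried. Figures were drawn with matplotlib 3.10.9. Precision is limited by 3 arrays per group.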

Additional observations from a re-analysis of the deposited data

How the results depend on the processing

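Of 166 recomputed counts and medians, 149 stayed within 1.5 times or within the spread between arrays, and of 191 recomputed differences of the 14 members given array by array, 189 kept their direction and call; a member without a call in both fits was counted as unchanged whatever its sign. Members called lower stayed at 0 in every alternative run. Requiring 1.5-fold left 12 members, 22 member probe sets, 7 genes between members, 107 other 1p genes and 16 genes after NOTCH2 called higher. Of all genes, 612 were then called higher and 1565 either way. Without _x_at and _s_at probe sets, which leaves fewer genes, 16 of 24 members, 14 of 35 genes between members, 188 of 380 other 1p genes and 69 of 400 genes after NOTCH2 were called higher and 3487 of 8369 genes in all were called either way, and the median of the genes between members was 0.16. MRPL20 was called higher as the mean of its probe sets (0.16) and by its dim probe set alone (0.35). Above the median level the medians were 0.46 between members and 0.44 for other 1p genes; with all values floored at that level they were 0.0029 and 0.17, since floored dim genes have no difference. Median centring moved the median after NOTCH2 to 0.043. Scaling moved the median of all genes to between -0.0068 (cyclic loess) and 0.06 (median centring). Leaving out each array in turn, 35 to 38 members, 22 to 27 genes between members and 267 to 283 other 1p genes were called higher. In the same fits 94 to 104 genes after NOTCH2 were called higher, and 5043 to 5441 of all genes were called either way. The members were listed by their difference, so nothing is read from how little their count moved.

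The labels do not say that the replicate numbers pair the samples. Deviations from the group means correlated at 0.0060, 0.09 and 0.23 between same-numbered samples. Between differently numbered samples the correlations ran from -0.20 to 0.11, and these few values cannot decide if the numbers pair. With the number as a replicate block, 35 members, 56 member probe sets and 25 genes between members were called higher. So were 298 other 1p genes and 113 genes after NOTCH2, and 5729 of all genes were called either way.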
